A study of Mus musculus with 12 samples.

Results

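The effect of R788 that was common to 3 culture media was examined in mouse bone marrow derived macrophages (BMDMs). All 12 libraries of the series entered the comparison. The 6 libraries from cells given R788 were set against the 6 libraries from cells without it, with the medium (no tumor-conditioned medium, NB9464 medium or NBT3L medium) as a blocking factor. The count table lists 54232 genes, of which 16281 reached 10 counts in 2 or more libraries and entered the test. BMDMs came from wild-type C57BL/6 mice and had been cultured for 5 days. For the last 24 h some were kept in tumor-conditioned medium (TCM) and others were not, and R788 was present at 500 nM in part of each. NB9464 is a mouse neuroblastoma line with amplified MYCN, whose TCM was collected over 48 h in DMEM without serum, and NBT3L is a line without the amplification, for which the preparation of TCM was not described. Each group held 2 libraries. The groups are written NS for cells given neither agent, R788 for the inhibitor alone, and by the name of the TCM, followed by + R788 where the inhibitor was added. What medium cells without TCM received, and what vehicle the cells without R788 received, was not stated. Nothing states whether the libraries of a group came from separate cultures or animals, so the p-values measure the spread between these libraries. In the test over the 3 media, differences of the effect between media also enter that spread.

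R788 (fostamatinib) is a prodrug whose active form inhibits Syk, a cytoplasmic tyrosine kinase. In macrophages Syk docks on phosphorylated ITAM motifs of Fc receptors, of C-type lectin receptors and of the adaptors Fcer1g and Tyrobp, and passes the signal to PI3K, PLC gamma, the CARD9 complex and the ERK pathway. Type I interferon is sensed through the receptor Ifnar1/Ifnar2, which activates a transcription complex that includes Stat2 and Irf9. That complex binds the interferon-stimulated response element (ISRE) in promoters of antiviral genes, while Irf7, itself induced by interferon, sustains interferon production.

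The libraries held between 44977847 and 56449685 counts, and totals did not differ detectably by treatment (exact permutation test within media, two-sided, p = 0.722, adjusted p = 0.722 over 5 measures). Between 16149 and 18343 genes had at least 1 count. Fewer genes were detected with R788 in 12 of 12 within-medium pairs of libraries, with a mean difference (R788 minus no R788) of -740 genes, or -735.8 at equal depth ( exact permutation p = 0.00926 for both, the smallest that 216 arrangements can give; adjusted p = 0.0154). The share of counts held by the 10 most abundant genes was 1.42 percentage points higher with R788 (exact permutation p = 0.00926, adjusted p = 0.0154), and the mitochondrial share was lower (difference -0.117 percentage points; exact permutation p = 0.0185, adjusted p = 0.0231). Their part in the results below was not tested. R788 replicate 8 stood apart, with the fewest detected genes (16149) and the least alike pair of libraries (chi-square per degree of freedom 37.6 against 7.73 to 16.7 in the other 5 pairs). Without it, the mean difference in detected genes was -410.7 (-400.8 at equal depth), and the no TCM difference went from -1146 to -157.5. Counts of called genes over all tested genes are therefore given with and without it. For the 37 gene lists used below, leaving it out, a check added after seeing the data, moved no count of called members by more than 2. Small counts that it moved by over 1.5 times were the Syk-coupled receptors that rose (3 to 5), CXC chemokines that fell (1 to 2), MHC class II genes that fell (1 to 2), MHC class I genes that rose (0 to 1), stromal markers that fell (2 to 1), LXR targets (2 to 1 each way) and lymphocyte markers that rose (1 to 0). In a principal component analysis of medium-centered values, the first component held 75.1% of the variance and separated every library with R788 from every library without it. Defining macrophage genes were abundant in each library. Normalized counts of Adgre1 (F4/80) were between 72140 and 394600, and those of Csf1r, the receptor for macrophage colony stimulating factor, between 90090 and 134300.

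Over the 3 media, 3944 of 16281 genes passed the test (24.2%; DESeq2, adjusted p under 0.05): 1795 were higher with R788 (11.03%) and 2149 were lower (13.2%). Without R788 replicate 8 the counts were 1828 higher and 2210 lower. In 3725 of the called genes (94.5%) the fold change had the same sign in all 3 media. In 2523 (64.0%), both libraries with R788 lay on the same side of both libraries without it in every medium, a pattern that 16.4% of all tested genes showed (7.06% higher, 9.31% lower). These 2523 genes, 1083 higher and 1440 lower, are called shared genes here, of which there were 2943 without R788 replicate 8. A change of at least 2-fold was seen in 418 called genes, 135 higher and 283 lower, and one of at least 4-fold in 113, 21 higher and 92 lower. Rises made up 45.5% of all calls and 32.3% of the calls of at least 2-fold. The calls were mostly among protein-coding genes, of which 1706 of 13284 were higher and 2064 lower. Among 590 lincRNAs, 25 were higher and 23 lower. In bulk RNA, fewer cells of a kind and less RNA per cell cannot be told apart, and this holds for every gene below.

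**Figure D1:**
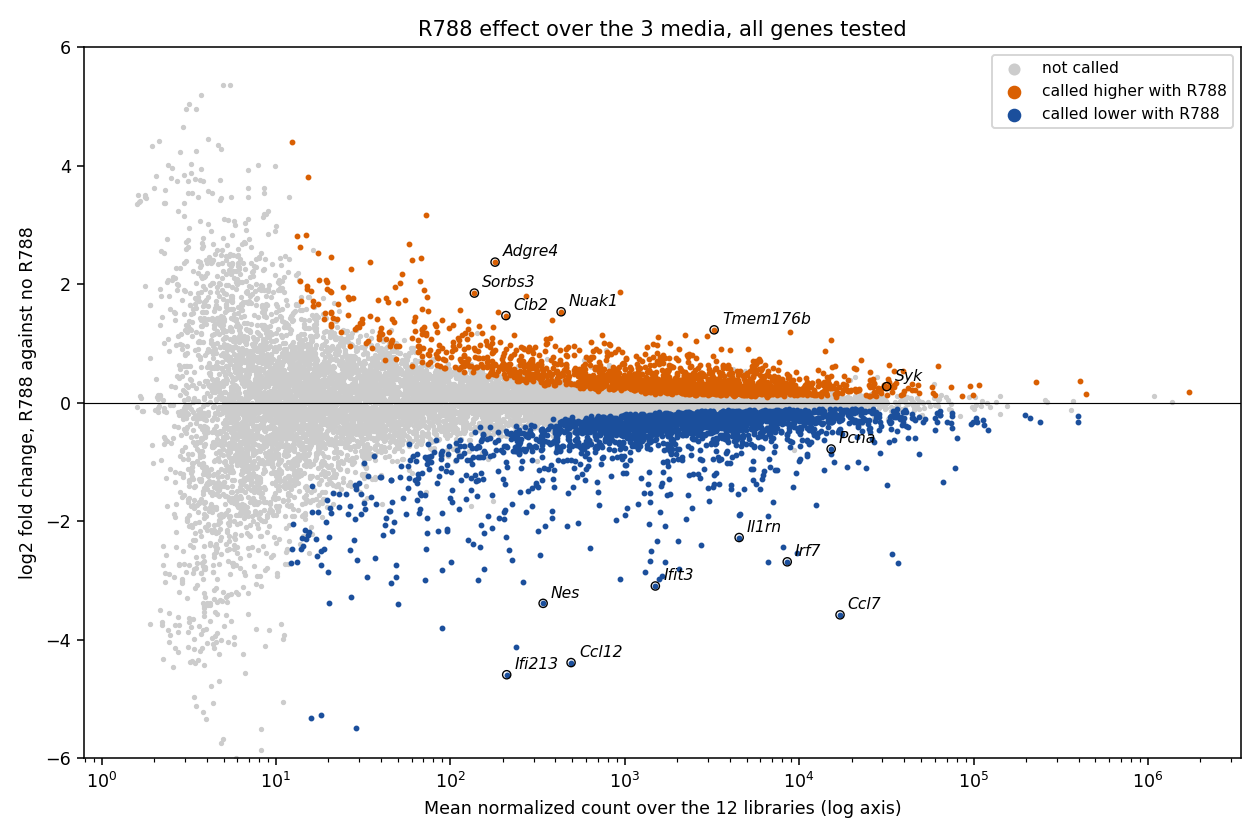
Each point is 1 of the 16281 tested genes, placed by its mean normalized count over 12 libraries (log axis) and its log2 fold change with R788 over the 3 media, with 2 genes beyond the axis; orange marks 1795 genes called higher and blue 2149 called lower. The largest falls of well-counted genes (Ifi213, Ccl12, Ccl7, Nes, Ifit3, Irf7) exceed the largest rises (Adgre4, Sorbs3, Nuak1).

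Syk itself (chr13:52583173-52648792, plus strand, GRCm38) was higher with R788 in 12 of 12 within-medium pairs. Its normalized counts were 15430 and 14550 in NS and 18340 and 17600 in R788. They were 34240 and 33630 in NB9464 TCM and 41090 and 43780 with R788 added, and 37100 and 37580 in NBT3L TCM against 44190 and 43850. The groups overlapped across media but not within a medium. The log2 fold change was 0.27 ± 0.037 (SE, 12 libraries; DESeq2 adjusted p = 5.21e-12), or 1.21-fold, and its size did not differ detectably between media (likelihood ratio adjusted p = 0.718). The other genes of the Syk pathway moved in both directions. Of 32 genes of the signaling chain, 10 rose (31.2%, against 11.03% of all genes) and 6 fell (18.8%, against 13.2%), and the median log2 fold change was 0.03. Fgr, a Src-family kinase that phosphorylates ITAMs, rose (0.55 ± 0.075), as did Card9, the adaptor that couples Syk to NF-kB (0.40 ± 0.099). Dok2, an adaptor that restrains Ras signaling, fell (-0.49 ± 0.057), and the ubiquitin ligase gene Cblb fell by 0.33. Of 18 genes listed as Syk-coupled receptors and adaptors, 3 rose (16.7%) and 5 fell (27.8%). The list also held 2 inhibitory receptors, Pirb and Fcgr2b. Pirb was among the 3 that rose (0.23, with 0.31, 0.20 and 0.18 in the 3 media), and Fcgr2b did not pass. Within the media (no TCM, NB9464, NBT3L), 7, 3 and 1 of the 18 rose and 2, 4 and 6 fell. In every medium alike, 1 rose and 1 fell, and the size differed between media in 11 of the 18. Fcgr1, the high-affinity receptor for IgG, fell most: 13790 and 13970 in NS against 3045 and 2874 in R788, 12330 and 12530 in NB9464 TCM against 6557 and 6670, and 13530 and 13420 in NBT3L TCM against 6198 and 6125. Levels were close to each other in the 3 media without R788, and the fall was largest in cells without TCM. Its log2 fold change over media was -1.42 ± 0.20. Trem1 also fell (-0.89 ± 0.15), while Tyrobp (0.25 ± 0.080) and Clec4e, the lectin receptor Mincle, rose (0.27).

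Interferon-stimulated genes fell together in all 3 media. All 50 tested genes on a list of interferon-stimulated effectors passed the test downward, against 13.2% of all genes, with a median log2 fold change of -1.44. Within the media the medians were -1.35 (no TCM), -1.44 (NB9464) and -1.62 (NBT3L), against -0.00379 over media for all genes. Called separately within each medium, 47 of the 50 were lower in all 3 media, which held for 3.59% of all tested genes. In 48 of them every within-medium pair was lower, against 9.31% of all genes. Without R788 replicate 8, 50 were again called lower. The lists had been drawn up with earlier results of these data known, so the counts describe these genes. The smallest fall was that of Samhd1, a nucleotide hydrolase, at -0.21.

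The 5 promoter windows that follow show the letters of an ISRE core beside genes that fell most, and, for comparison, a gene that fell as much without those letters and a gene that rose most. Windows span 250 bases before to 50 bases after a RefSeq start on GRCm38.p6 and are written 5′ to 3′ on the strand of the gene, with capitals for each match, on either strand, to a pair of TTTC blocks separated by any 2 bases (the ISRE core searched). The windows are Ifit1 (chr19:34640639-34640938, plus strand), Ifit3 (chr19:34583279-34583578, plus strand), Ifi206 (chr1:173491269-173491568, minus strand), Ccl12 (chr11:82101595-82101894, plus strand) and Adgre4 (chr17:55749734-55750033, plus strand).
Ifit1: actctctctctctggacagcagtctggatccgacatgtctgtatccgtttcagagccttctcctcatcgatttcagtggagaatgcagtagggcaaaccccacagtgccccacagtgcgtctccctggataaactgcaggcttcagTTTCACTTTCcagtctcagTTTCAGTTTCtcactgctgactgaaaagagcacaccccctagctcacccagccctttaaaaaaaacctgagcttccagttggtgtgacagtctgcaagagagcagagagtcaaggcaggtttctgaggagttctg
Ifit3: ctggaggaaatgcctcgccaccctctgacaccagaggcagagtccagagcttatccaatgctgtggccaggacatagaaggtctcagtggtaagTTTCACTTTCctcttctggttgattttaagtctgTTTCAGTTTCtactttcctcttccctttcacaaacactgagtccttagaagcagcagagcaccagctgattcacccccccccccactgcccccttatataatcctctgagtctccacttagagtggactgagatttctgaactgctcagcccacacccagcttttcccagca
Ifi206: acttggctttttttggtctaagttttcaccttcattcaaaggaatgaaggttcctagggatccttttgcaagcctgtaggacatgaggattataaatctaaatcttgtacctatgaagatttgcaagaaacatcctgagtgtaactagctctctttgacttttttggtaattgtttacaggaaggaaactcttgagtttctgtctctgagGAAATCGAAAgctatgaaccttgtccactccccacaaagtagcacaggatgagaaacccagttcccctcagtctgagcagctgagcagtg
Ccl12: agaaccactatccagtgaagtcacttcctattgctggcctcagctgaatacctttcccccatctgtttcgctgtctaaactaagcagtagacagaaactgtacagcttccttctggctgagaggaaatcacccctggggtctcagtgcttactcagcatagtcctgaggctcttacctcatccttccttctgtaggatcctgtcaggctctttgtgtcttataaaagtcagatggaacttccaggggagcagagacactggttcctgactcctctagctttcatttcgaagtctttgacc
Adgre4: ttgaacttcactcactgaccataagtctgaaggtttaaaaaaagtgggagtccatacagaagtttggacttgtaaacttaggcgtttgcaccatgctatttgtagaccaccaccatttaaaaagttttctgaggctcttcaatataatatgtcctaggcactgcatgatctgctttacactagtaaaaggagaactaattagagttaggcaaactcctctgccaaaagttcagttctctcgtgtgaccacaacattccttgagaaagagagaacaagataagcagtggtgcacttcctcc
The matches began at -104 and -85 from the start in Ifit1, at -156 and -122 in Ifit3, and at -40 in Ifi206. Ccl12 and Adgre4 held none. Of the 24 genes with the largest rises and falls, 19 had a window, and 5 of these held the core: Ifi213, Ifi206, Ifit3, Ifit3b and Ifit1. Among the 12 largest rises, 9 had a window and 0 held it. The core stood in 3.96% of the 11263 tested genes with a window and in 3.44% of all 32851 windows. It stood in 24.7% of the 198 genes called lower by at least 2-fold and in 32.3% of the 65 called lower by at least 4-fold, against 2.11% of the 95 called higher by at least 2-fold. By list, it stood in 21 of 38 interferon-stimulated effectors, in 9 of 12 Ifi200 genes and in 9 of 10 guanylate binding proteins and IRG GTPases, and in 0 of 6 CC chemokines and 0 of 21 replication genes. Also searched were the AP-1 site (TGANTCA), GAS core (TTCNNNGAA), CLEAR core, CRE and XRE core (N, any base). Among genes called at 2-fold or more, the AP-1 site stood in 16.2% of falls and 6.32% of rises, against 6.78% of tested genes. The GAS core stood in 13.1%, 9.47% and 8.2% in that order. At 4-fold or more, the AP-1 share of falls was higher still, while the GAS share was 6.15%. The CLEAR core, CRE and XRE core were not more frequent among 2-fold falls than among tested genes. A match says only that the letters of a motif are in that window.

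Among the effectors, the Ifit genes, whose products bind viral RNA, lie together on chromosome 19. Ifit1 (chr19:34640871-34650009) had 3274 and 3123 normalized counts in NS and 544 and 426 in R788. It had 1678 and 1549 in NB9464 TCM and 242 and 193 with R788, and 3754 and 3305 in NBT3L TCM against 365 and 354. Every library with R788 lay below every library without it, whatever the medium, and the level over media was 7.83-fold lower (log2 fold change -2.97 ± 0.11, DESeq2 adjusted p = 3.41e-170). Ifit3 fell from 5210 and 4887 to 515 and 530.1 without TCM, from 627 and 868 to 77.6 and 148 in NB9464 TCM, and from 2275 and 2329 to 242 and 255 in NBT3L TCM (-3.09 ± 0.13). Its near copy Ifit3b fell as well (-3.02 ± 0.23). Reads of such copies can be split between them, so their separate values are less certain. Mx1, a gene of the Mx family of GTPases (chr16:97447035-97462907), had 2577 and 2960 normalized counts in NS and 348 and 406 in R788. It had 847 and 620 in NB9464 TCM and 75.6 and 60.0 with R788, and 1557 and 1309 in NBT3L TCM against 247 and 201 (-2.97 ± 0.14). The sizes of these falls did not differ detectably between media (likelihood ratio adjusted p = 0.0693 for Ifit1, 0.302 for Ifit3, 0.107 for Ifit3b and 0.131 for Mx1).

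Oasl1, which restrains translation of Irf7, showed nearly the same fall in each medium. Its normalized counts were 3702 and 3516 in NS, 485 and 483 in R788, 1468 and 1559 in NB9464 TCM, 205 and 179 with R788, 3458 and 3701 in NBT3L TCM, and 471 and 488 with R788. Its log2 fold changes were -2.90 ± 0.11 (no TCM), -2.98 ± 0.13 (NB9464) and -2.90 ± 0.11 (NBT3L) (likelihood ratio adjusted p = 0.95). The Schlafen gene Slfn4 (-2.85 ± 0.096) fell, as did Ch25h, an enzyme that hydroxylates cholesterol (-2.80 ± 0.28). Zbp1, a sensor of Z-form nucleic acid, fell 6.95-fold (-2.80), and Isg15, a ubiquitin-like modifier, 5.28-fold (-2.40). Exons of Oasl1 overlap those of the antisense gene Gm13822, and those of Ch25h overlap Gm26902, while counting was not stated to use strand.

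Of 25 tested interferon ligands, receptors and regulators, 5 rose (20%) and 9 fell (36%), against 11.03% and 13.2% of all genes. Irf7 (chr7:141262706-141266481) fell in every medium: 25060 and 25320 in NS against 4008 and 4138 in R788, 7585 and 7576 in NB9464 TCM against 1095 and 1076, and 11610 and 11320 in NBT3L TCM against 1926 and 1775. Its log2 fold changes of -2.63, -2.80 and -2.63 in the 3 media did not differ detectably (adjusted p = 0.274), and over media it was -2.68 ± 0.047. Stat2 and Irf9, of the interferon-activated transcription complex, also fell, by 1.30 ± 0.060 and 0.62. The DNA sensor gene Cgas fell by 0.96, with -0.97, -0.91 and -1.01 in the 3 media. The receptor subunits did not follow. Ifngr1, which binds interferon gamma, rose (0.32 ± 0.064), and Ifnar1 and Ifnar2 had log2 fold changes of 0.05 and 0.15 that did not pass the test (adjusted p = 0.395 and 0.0858). Tlr9, a sensor of unmethylated DNA, rose (0.62 ± 0.15), whereas Tlr3 (-0.50) and Tlr7 (-0.47) fell. Ifnb1 had 18 counts over all 12 libraries and was not tested.

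The Ifi200 genes, which encode DNA-binding proteins with pyrin or HIN domains, lie in a cluster on chromosome 1. Of 13 tested, 10 fell (76.9%, against 13.2% of all genes) and none passed upward, with a median log2 fold change of -1.88. Ifi213 had 907 and 929 normalized counts in NS and 130.0 and 147 in R788. In NB9464 TCM it had 84.2 and 79.9 without R788 and 0 counts in both libraries with it, which puts the fall there at no less than 26.0-fold when 3 counts per library are taken as the floor. In NBT3L TCM it had 99.0 and 135 without R788, and 0 and 12.1 with it. Ifi206 fell from 1055 and 755 to 151 and 113 without TCM, from 78.4 and 107 to 0 and 6.67 in NB9464 TCM, and from 287 and 275 to 14.9 and 3.01 in NBT3L TCM (-4.12 ± 0.56). Ifi204 fell 3.69-fold with -1.85, -1.78 and -2.02 in the 3 media. Aim2, the inflammasome sensor of the family, had a log2 fold change of -0.10 and did not pass (adjusted p = 0.370). The members resemble each other in sequence, so counts of single members are uncertain. Of 15 guanylate binding proteins and IRG GTPases, which attack vacuoles of intracellular pathogens, 13 fell (86.7%) and 0 rose, with a median of -1.51. Gbp3 fell by 2.09 ± 0.12, Tgtp2 by 2.43 ± 0.29 and Irgm1 by 1.66.

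Class I antigen presentation fell less. Of 17 genes, 12 fell (70.6%, against 13.2% of all genes) and 0 rose, with a median of -0.36. Tap1, the peptide transporter subunit, fell from 7054 and 6783 to 3286 and 3027 without TCM, from 3771 and 3975 to 2300 and 2066 in NB9464 TCM, and from 5641 and 4989 to 2679 and 2367 in NBT3L TCM (-1.01 ± 0.069). Nlrc5, the transactivator of class I genes, fell by 0.78 ± 0.070 and B2m by 0.42. H2-K1 (0.06) and H2-D1 (0.09) did not pass. Tap1 and Psmb9 overlap on opposite strands. Class II presentation went the other way in part over media, but not in every medium. Of 14 genes, 5 rose (35.7%) and 1 fell (7.14%; Cd40, -0.53 ± 0.12). Within the media (no TCM, NB9464, NBT3L), 4, 1 and 1 rose and 1, 1 and 4 fell, and 0 rose in all 3. H2-Ab1 rose from 764 and 903 to 1017 and 979.6 without TCM, from 1348 and 1715 to 2204 and 2139 in NB9464 TCM, and from 1970 and 2158 to 2460 and 2962 in NBT3L TCM (0.39 ± 0.086).

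**Figure D2:**
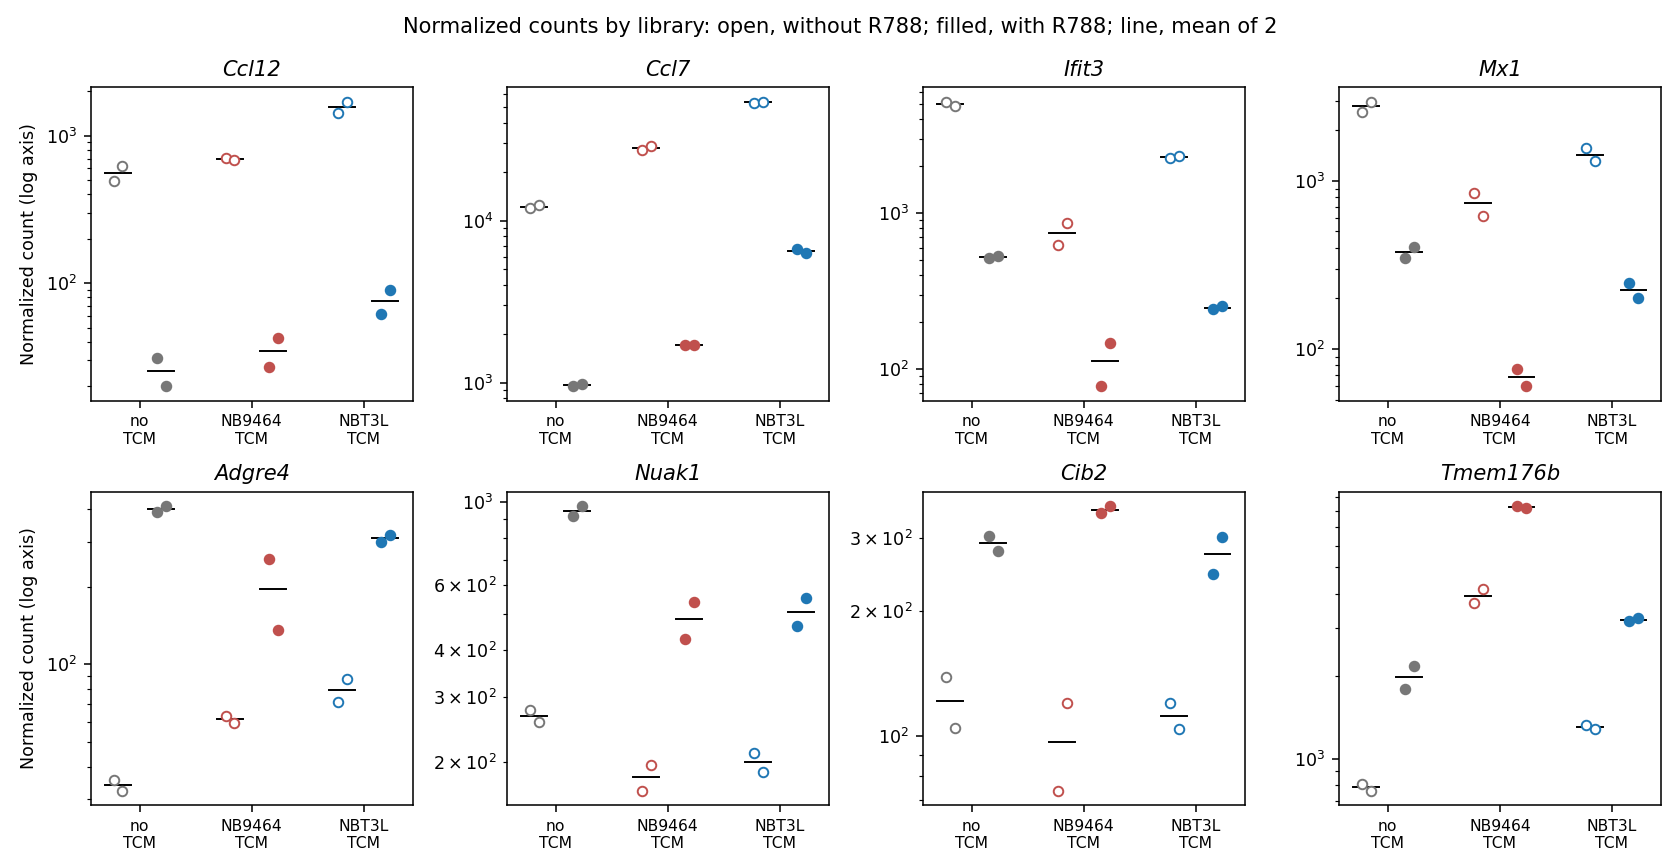
Normalized counts of 8 genes (log axis, a separate range for each panel) in each library by medium; open points are libraries without R788, filled points libraries with R788, and lines the mean of 2. Within each medium the filled points of Ccl12, Ccl7, Ifit3 and Mx1 lie below the open ones, and those of Adgre4, Nuak1, Cib2 and Tmem176b above.

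The chemokines that recruit monocytes fell in each medium. Ccl12 and Ccl7, which lie near Ccl2 on chromosome 11 and act on the receptor Ccr2, were among the 4 largest falls, with Ifi213 and Ifi206. Ccl12 (chr11:82101845-82103400) had 493 and 619 normalized counts in NS and 30.9 and 19.96 in R788, 708 and 682 in NB9464 TCM and 26.9 and 42.2 with R788, and 1425 and 1705 in NBT3L TCM and 61.5 and 90.4 with R788. The highest library with R788 was thus far below the lowest without it. Its log2 fold changes were -4.46 ± 0.29, -4.34 ± 0.29 and -4.36 ± 0.25 in the 3 media (likelihood ratio adjusted p = 0.981), and over media it was 20.9-fold lower (-4.38 ± 0.16, DESeq2 adjusted p = 2.39e-171). Ccl7 (chr11:82045712-82047525) had 11930 and 12490 in NS and 949 and 984 in R788. It had 27310 and 28740 in NB9464 TCM against 1720 and 1712 with R788, and 52780 and 54240 in NBT3L TCM against 6643 and 6279. Its fall was 11.9-fold over media (-3.58 ± 0.14), and it was larger in NB9464 TCM (-4.03 ± 0.06) than in NBT3L TCM (-3.05 ± 0.06; likelihood ratio adjusted p = 2.29e-30 over the 3 media). Ccl2 fell 5.85-fold, with -2.85, -2.61 and -2.19 in the 3 media.

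Of 11 tested CC chemokines, 8 fell (72.7%, against 13.2% of all genes) and 0 rose, with a median of -1.62. The inflammatory chemokines Ccl3 (-1.002), Ccl4 (-1.90) and Ccl5 (-1.45) fell, and Ccl6 (-0.62) and Ccl9 (-0.86) fell less. Ccl22, at a mean of 33 normalized counts, did not pass (-1.61, adjusted p = 0.0789). Of 11 CXC chemokines, 1 rose and 1 fell over media (9.09% each), shares near those of all genes (11.03% and 13.2%). Within the media (no TCM, NB9464, NBT3L), 4, 2 and 1 of them rose and 1, 2 and 4 fell. Their medians were 0.07, -0.15 and -0.29. The neutrophil attractants Cxcl1 (-0.09), Cxcl2 (-0.06) and Cxcl3 (-0.10) did not pass over media (DESeq2 adjusted p = 0.393, 0.842 and 0.861). Cxcl10, an interferon-induced ligand of the chemokine receptor Cxcr3, fell with log2 fold changes of -2.09, -2.02 and -2.10 in the 3 media, sizes that did not differ detectably (likelihood ratio adjusted p = 0.993). Cxcl12 rose (1.90), from 18.8 and 47.4 to 142 and 113 without TCM, from 13.4 and 20.4 to 91.5 and 70.0 in NB9464 TCM, and from 47.0 and 36.8 to 136 and 109 in NBT3L TCM. Its receptor Cxcr4 rose as well (1.004 ± 0.17), although in NB9464 TCM 1 of the libraries with R788 (136) lay below 1 without it (151). Of 13 chemokine and chemoattractant receptors, 2 rose (15.4%) and 6 fell (46.2%). Ccr3 fell by 2.68 ± 0.38, Ccr1 by 1.12 and Ccr2 by 0.47, and the C5a receptor C5ar1 by 0.50 ± 0.051.

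**Figure D3:**
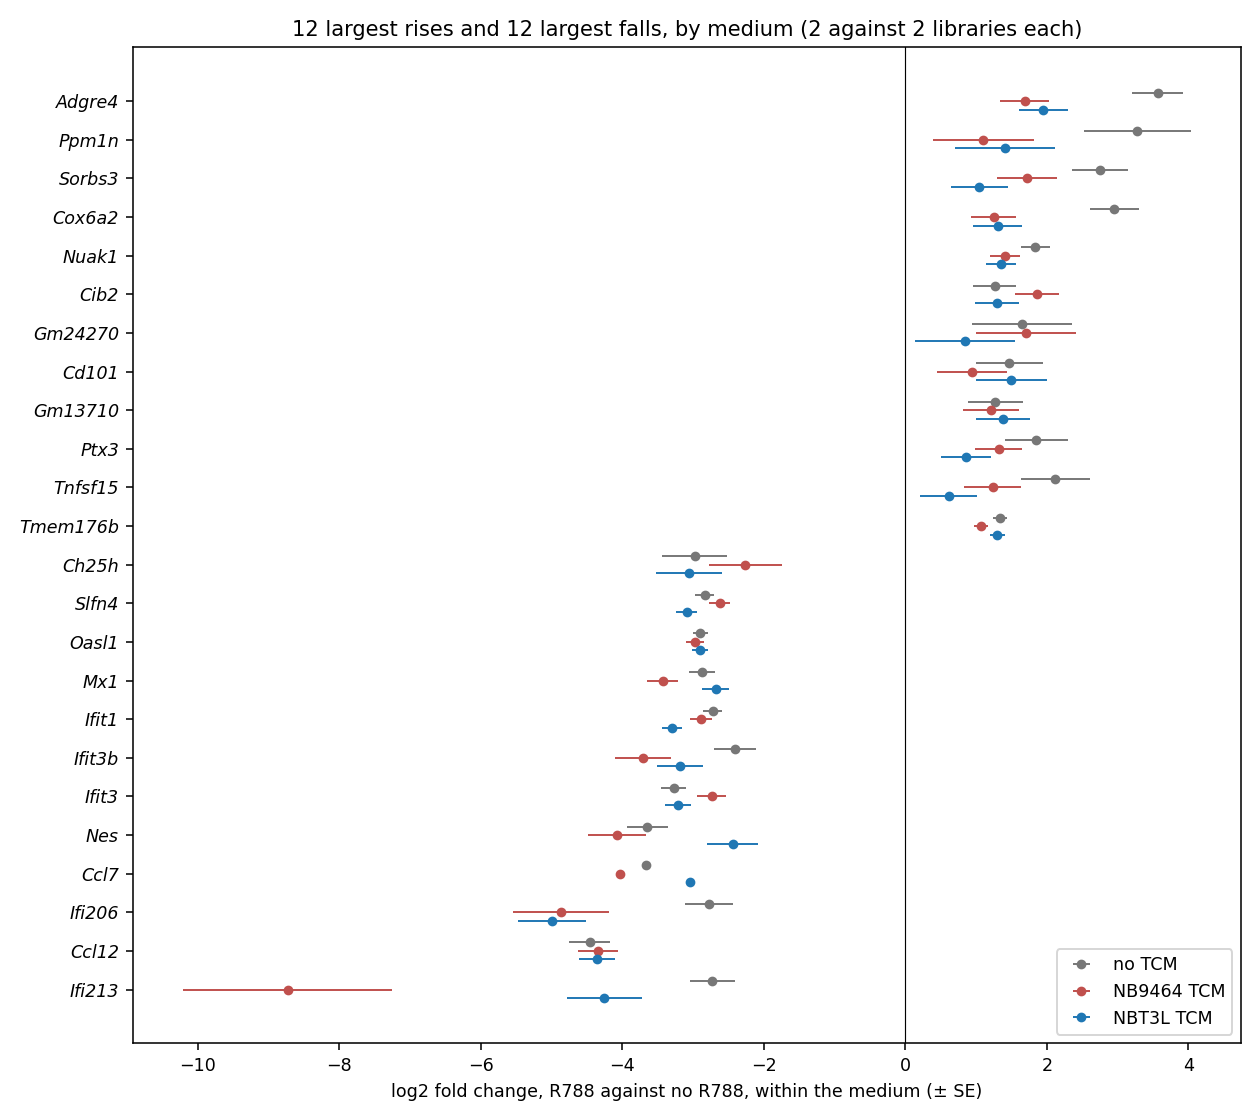
Log2 fold change with R788 within each medium (± SE, 2 against 2 libraries) for the 12 largest rises and 12 largest falls over the 3 media. Points of the 3 media lie together for Ccl12, Oasl1, Nuak1 and Tmem176b, while the rise of Adgre4 is largest without TCM and Ifi213 in NB9464 TCM rests on 0 counts with R788.

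Nes, which encodes the intermediate filament nestin, was the remaining gene among the 12 largest falls. It had 1577 and 1470 normalized counts in NS and 94.5 and 149 in R788, 234 and 193 in NB9464 TCM and 9.95 and 15.6 with R788, and 183 and 104 in NBT3L TCM and 26.5 and 26.1 with R788 (-3.39 ± 0.25). Just below the 12 stood Spp1 (osteopontin), with 135300 and 137100 in NS against 23320 and 21820 in R788, 35420 and 35350 in NB9464 TCM against 3791 and 4019, and 19340 and 18890 in NBT3L TCM against 3720 and 3850. It fell 6.51-fold over media (-2.70).

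The 12 largest rises were smaller and did not belong to 1 pathway on the lists. Adgre4 (chr17:55749984-55853662), an adhesion receptor of the same family as F4/80, had 35.7 and 32.2 normalized counts in NS and 392 and 412 in R788. It had 63.1 and 59.5 in NB9464 TCM against 257 and 137, and 71.8 and 87.7 in NBT3L TCM against 299 and 319. All 6 libraries with R788 were above all 6 without. The rise was 5.19-fold over media (2.38 ± 0.28, DESeq2 adjusted p = 9.37e-16), and it was larger without TCM (3.56 ± 0.36) than in NB9464 TCM (1.68 ± 0.35) or NBT3L TCM (1.95 ± 0.35; likelihood ratio adjusted p = 0.00373). Nuak1, an AMPK-related kinase (chr10:84370905-84440597), had 276 and 256 in NS and 918 and 977 in R788, 167 and 197 in NB9464 TCM and 429 and 539.8 with R788, and 212 and 188 in NBT3L TCM and 466 and 552 with R788. Its rise of 2.90-fold (1.54 ± 0.13) did not differ detectably between media (adjusted p = 0.455), and its groups did not overlap.

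Tmem176b, which encodes an endosomal membrane protein, rose 2.35-fold with the smallest SE of the 12 (1.23 ± 0.070). It had 812 and 763 in NS against 1801 and 2180.0 in R788, 3713 and 4167 in NB9464 TCM against 8358 and 8201, and 1326 and 1290.0 in NBT3L TCM against 3188 and 3253. Its neighbor Tmem176a, which overlaps it on the opposite strand, rose by 1.12. Cib2, a calcium- and integrin-binding protein, had between 73.7 and 139 normalized counts without R788 and between 246 and 359 with it (1.47 ± 0.18), so that the groups did not overlap over all media. Sorbs3 (vinexin, an adaptor of cell-matrix adhesion) rose 3.61-fold (1.85 ± 0.29) from at most 84.5 to at least 85.5. Cox6a2, the muscle isoform of a cytochrome c oxidase subunit, rose 3.49-fold (1.805 ± 0.27). Exons of Sorbs3, Cox6a2 and Cib2 overlap Gm49417, Itgad and Sh2d7 on the opposite strand, and reads of the 2 strands cannot be told apart here.

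Of the other large rises, Ptx3, a soluble pattern recognition protein, rose by 1.28 ± 0.22 and Tnfsf15, a TNF family ligand, by 1.25 ± 0.27. Cd101, an inhibitory receptor of the immunoglobulin superfamily, rose by 1.31 ± 0.27, and the lincRNA Gm13710 by 1.29 ± 0.21 with 1.27, 1.21 and 1.38 in the 3 media. Ppm1n, a PP2C-family phosphatase, rose by 1.87 ± 0.51, with only 1.88 and 30.3 normalized counts in NS. Its change within NB9464 TCM (1.10 ± 0.71, adjusted p = 0.33) and within NBT3L TCM (1.41 ± 0.71, adjusted p = 0.19) did not pass by itself. The miRNA gene Gm24270 rose by 1.40 ± 0.38, and its libraries were far apart in NB9464 TCM + R788, at 1506 and 483. It did not pass within any medium (DESeq2 adjusted p = 0.063, 0.074 and 0.52). Within NBT3L TCM, Tnfsf15 (DESeq2 adjusted p = 0.36), Ptx3 (0.079) and Sorbs3 (0.060) did not pass, nor did Cd101 within NB9464 TCM (0.19).

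**Figure D4:**
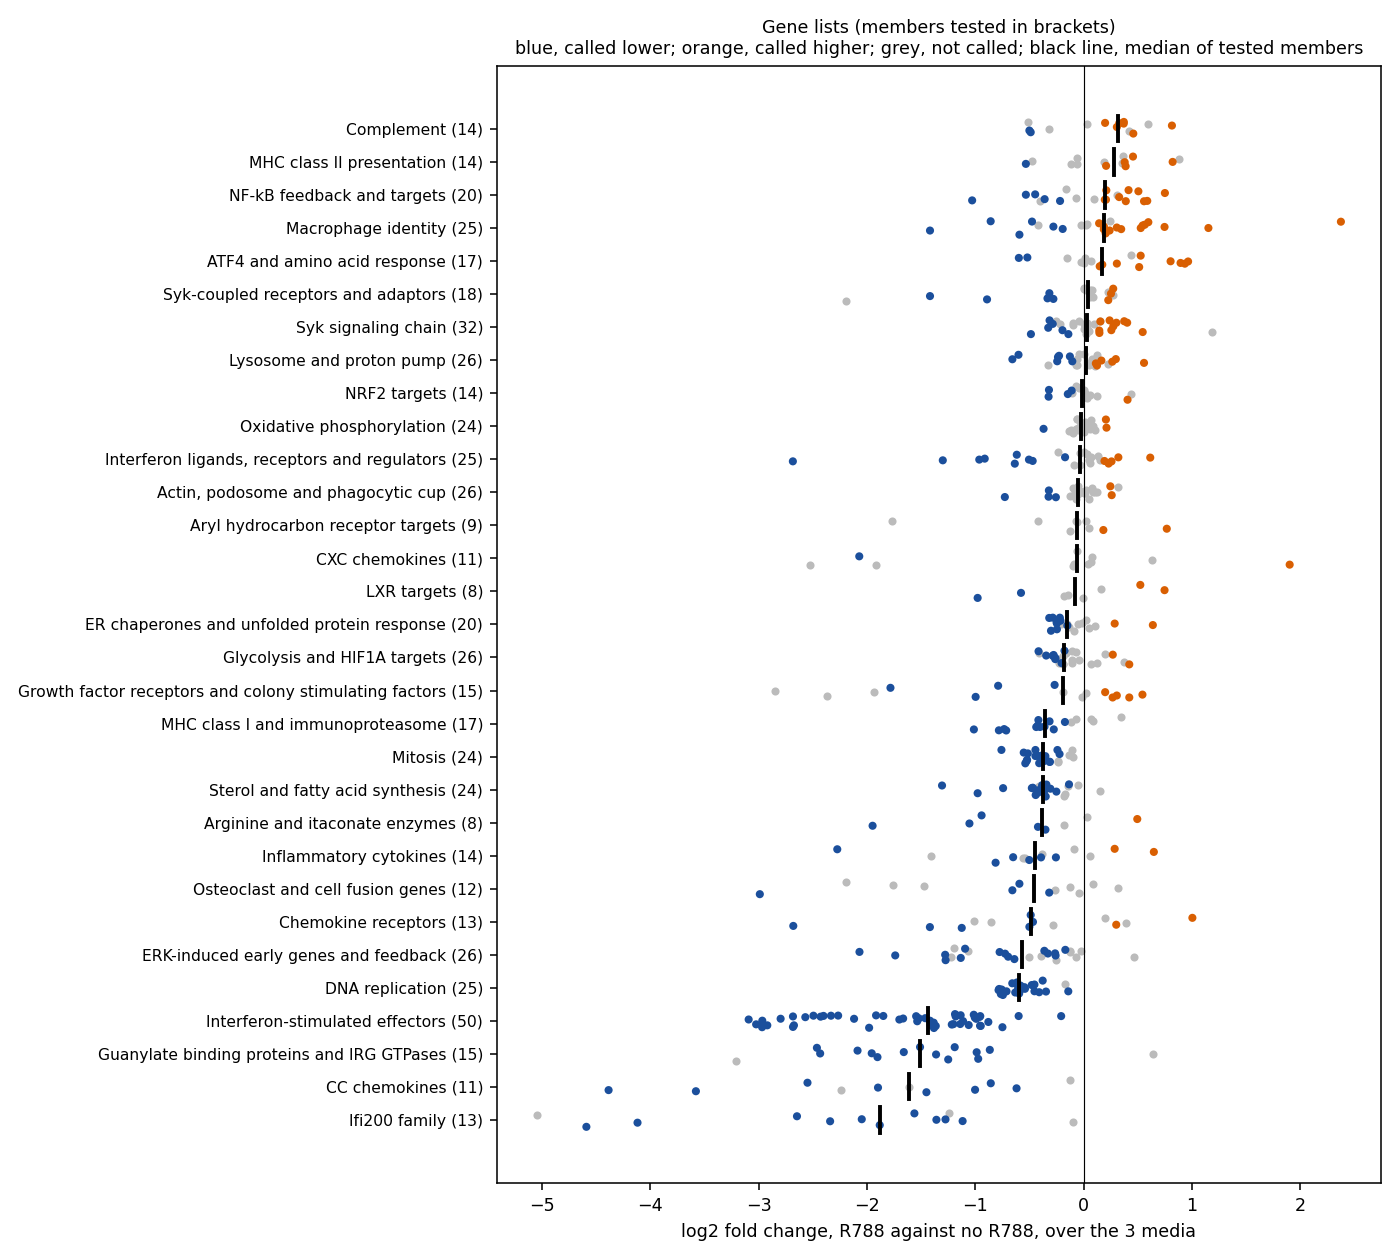
Log2 fold change with R788 over the 3 media of the tested members of 31 gene lists, with the number tested in brackets; blue points were called lower, orange higher and grey not called, and black lines mark medians. The Ifi200, CC chemokine, GBP/IRG and interferon effector lists have medians of -1.44 or lower, and no member of these 4 was called higher.

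Genes that ERK induces, and the feedback regulators of that pathway, fell in part. Of 26 genes, 15 fell (57.7%, against 13.2% of all genes) and 0 rose. The median was -0.57, with medians of -0.59, -0.45 and -0.52 in the 3 media. Fosl1, an AP-1 subunit, fell from 146 and 207 to 71.8 and 46.3 without TCM, from 559.6 and 559.2 to 193 and 218 in NB9464 TCM, and from 646 and 606 to 139 and 138 in NBT3L TCM (-1.74 ± 0.17). Egr1 fell by 2.07 ± 0.26. The G1 cyclin gene Ccnd1 fell 2.43-fold, with -1.02, -1.58 and -1.24 in the 3 media, and Myc 1.71-fold, with -1.12, -0.54 and -0.67. The phosphatase genes Dusp1 (-0.70), Dusp4 (-0.64) and Dusp5 (-1.13) fell. Fos (-0.40) and Junb (-0.02) did not pass (adjusted p = 0.182 and 0.852).

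DNA replication genes fell nearly as a whole by a small amount. Of 25 genes, 24 fell (96%, against 13.2% of all genes), each in 12 of 12 within-medium pairs, and the median was -0.59. The exception was E2f2 (-0.17, adjusted p = 0.102). Without R788 replicate 8 all 25 were called lower. Pcna, the sliding clamp, had 29330 and 30050 normalized counts in NS and 11690 and 10870 in R788, 14000 and 14220 in NB9464 TCM and 9516 and 10230 with R788, and 15200 and 15350 in NBT3L TCM and 11230 and 11380 with R788 (-0.78 ± 0.15). The fall was largest without TCM, where the starting level was also highest (likelihood ratio adjusted p = 5.98e-37). Pole, the leading-strand polymerase, fell by 0.79 ± 0.075, by a size that did not differ detectably between media (adjusted p = 0.482). Mcm6 of the replicative helicase fell by 0.75 and Uhrf1 by 0.76. Of 24 mitosis genes, 19 fell (79.2%) and 0 rose, with a median of -0.37. Their medians moved from -0.61 (no TCM) through -0.34 (NB9464) to -0.15 (NBT3L). Cdk1 fell by 0.55 ± 0.083 and the spindle checkpoint kinase gene Ttk by 0.76 ± 0.096, whereas Mki67 (-0.10, adjusted p = 0.242) and Cdc20 (-0.09, adjusted p = 0.360) did not pass.

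Of 24 genes of sterol and fatty acid synthesis, 18 fell over media (75%, against 13.2% of all genes) and 0 rose, with a median of -0.38. Within the media (no TCM, NB9464, NBT3L), 20, 16 and 5 of them fell. Only 5 fell in every medium, and the size differed between media in 10 of the 24. Scd1, named next, did not pass within NBT3L TCM (DESeq2 adjusted p = 0.123). Scd1, the stearoyl-CoA desaturase, fell by 1.31 ± 0.24, and Fasn, the fatty acid synthase, by 0.74 with -0.79, -0.95 and -0.49 in the 3 media. Without R788 replicate 8, the members called lower were 17 of this list, 17 of the mitosis list, 16 of the ERK list and 8 of the CC chemokines. Scd2 had 9276 and 8616 in NS against 2246 and 2120 in R788, 21750 and 21100 in NB9464 TCM against 11880 and 13320, and 7879 and 7887 in NBT3L TCM against 7038 and 7101. Its fall was thus large without TCM and small in NBT3L TCM (-0.98 ± 0.26 over media). Among 8 LXR targets, 2 rose (Nr1h3, 0.52 ± 0.072; Apoe, 0.75 ± 0.27) and 2 fell (Scd2; Abcg1, -0.58 ± 0.23). The list is small, 25% each way against 11.03% and 13.2% of all genes. Of 26 glycolysis and HIF1A target genes, 2 rose (7.69%) and 8 fell (30.8%), among them the glucose transporter gene Slc2a1 (-0.35 ± 0.053). Within the media (no TCM, NB9464, NBT3L), 19, 7 and 2 of this list fell and 2, 2 and 3 rose. The medians were -0.38, -0.04 and 0.07, and the size differed between media in 20 of the 26. Of 24 oxidative phosphorylation genes, 2 rose (8.33%) and 1 fell (4.17%), both below the shares of all genes (11.03% and 13.2%). The media differed, however: 10 of these genes fell and 0 rose without TCM, while 6 rose and 0 fell in NB9464 TCM. In NBT3L TCM 1 rose and 0 fell, and the size differed between media in 12 of the 24.

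**Figure D5:**
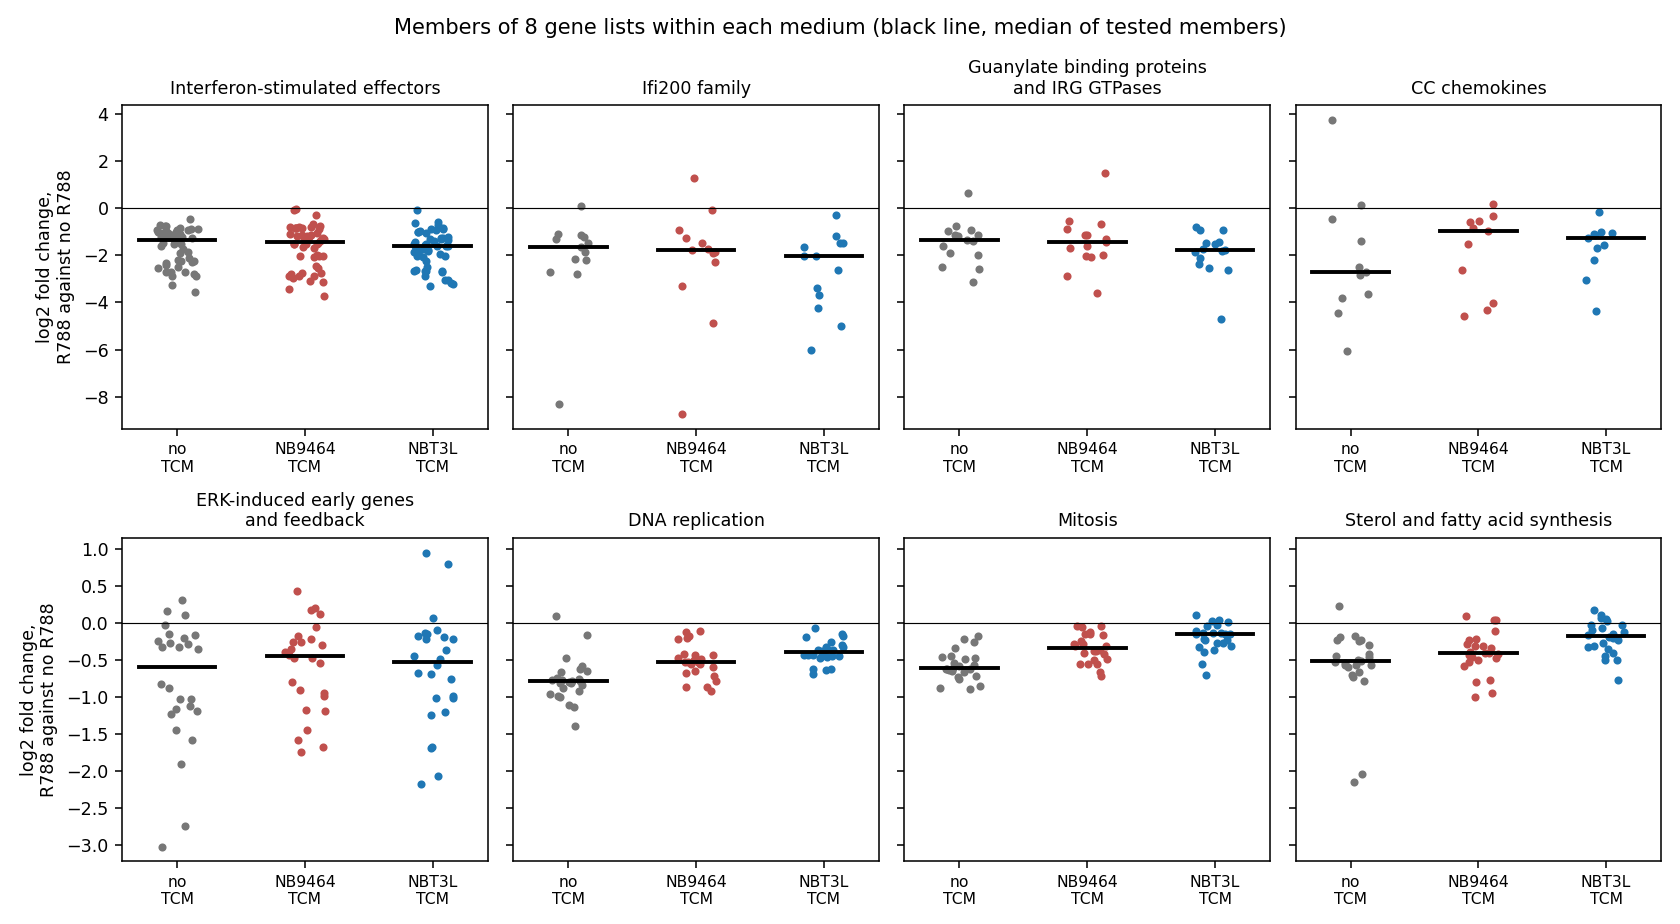
Log2 fold change with R788 within each medium for the tested members of 8 lists, with black lines at the medians and a common scale within each row. The 4 upper lists have medians between -0.98 and -2.72 in the 3 media, and the medians of DNA replication, mitosis and sterol synthesis move toward 0 from no TCM to NBT3L TCM.

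Cytokine and enzyme genes moved in both directions. Of 14 inflammatory cytokines, 2 rose (14.3%) and 6 fell (42.9%) over media, against 11.03% and 13.2% of all genes. Within the media (no TCM, NB9464, NBT3L), 0, 2 and 2 of them rose and 5, 4 and 5 fell. Only 1 was called lower in every medium, and the size differed between media in 5 of the 14. Il1rn, the antagonist of the IL-1 receptor, fell 4.84-fold: 1975 and 2114 in NS against 430 and 288 in R788, 3968 and 4264 in NB9464 TCM against 1129 and 1194, and 16220 and 16840 in NBT3L TCM against 2808 and 3086 (-2.27 ± 0.11). Il1b (-0.65), Il6 (-0.50), Tnf (-0.26), Il18 (-0.39) and Osm (-0.81 ± 0.19) fell over media. Osm did not pass by itself without TCM or in NBT3L TCM (DESeq2 adjusted p = 0.079 and 0.25). The IL-12 family subunit genes Il12a (0.65 ± 0.13) and Ebi3 (0.29 ± 0.063) rose. Il12a had 0 counts in all 4 libraries without TCM, so its rise was seen in the 2 tumor media. Among 8 arginine and itaconate enzymes, 1 rose (12.5%) and 5 fell (62.5%). Arg1 fell 3.86-fold, from 125 and 148 to 23.6 and 20.8 without TCM, from 518 and 583 to 133 and 124 in NB9464 TCM, and from 996 and 1092 to 366 and 457 in NBT3L TCM. Nos2, which uses the same substrate, fell by 1.05 ± 0.15, and Odc1, which makes polyamines, by 0.94. Arg2, the mitochondrial arginase, rose (0.50 ± 0.16), and Acod1, which makes itaconate, fell by 0.35. Of 15 growth factors, colony stimulating factors and receptors, 5 rose (33.3%) and 4 fell (26.7%). Csf3r rose (0.54 ± 0.17) and Csf1r rose (0.31), while Pdgfb fell (-0.997 ± 0.086). Csf3 fell by 1.78 ± 0.36, from 4558 and 4965 to 1152 and 1270.0 in NB9464 TCM and from 7308 and 6902 to 1460 and 1674 in NBT3L TCM, and it had at most 7.27 normalized counts without TCM.

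Of 20 NF-kB feedback and target genes, 10 rose (50%, against 11.03% of all genes) and 5 fell (25%, against 13.2%). Nfkb2 rose from 3267 and 3229 to 5895 and 5609 without TCM, from 4640 and 4964 to 7109 and 6646 in NB9464 TCM, and from 7082 and 6639 to 9512 and 8876 in NBT3L TCM (0.59 ± 0.067). The inhibitor gene Nfkbie rose by 0.75 ± 0.13 and Icam1 by 0.56, whereas Ptgs2 (-1.03 ± 0.14), Tnfaip3 (-0.36), Zfp36 (-0.45) and Traf1 (-0.22) fell. Among 25 macrophage identity genes, 14 rose (56%) and 6 fell (24%). Fcrls rose from 3084 and 3264 to 5023 and 4389 without TCM, from 809 and 1026 to 2163 and 2092 in NB9464 TCM, and from 576 and 569 to 1710 and 1992 in NBT3L TCM (1.15 ± 0.14). Adgre1 (0.35), Mertk (0.53), Cebpa (0.56) and Lyz2 (0.19) rose by less. Mrc1 did not move one way: 28260 and 26070 in NS against 27830 and 31160 in R788, but 2812 and 2517 in NB9464 TCM against 888 and 872, and 4716 and 4424 in NBT3L TCM against 2095 and 2225. Of 14 complement genes, 7 rose (50%) and 2 fell (14.3%), the receptors C3ar1 and C5ar1. C1qa rose by 0.37 and C3 by 0.33. Of 12 osteoclast and cell fusion genes, 4 fell (33.3%, against 13.2% of all genes) and 0 rose, among them Ctsk (-0.66 ± 0.10) and Atp6v0d2 (-0.59 ± 0.15). Dcstamp, the fusion protein, had the lowest value (-2.99). It did not meet the rule for named genes, a call and a mean of at least 100 normalized counts.

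Stress and housekeeping lists are set here against 11.03% higher and 13.2% lower among all genes. Of 17 ATF4 targets and amino acid response genes, 9 rose (52.9%) and 2 fell (11.8%). Within the media (no TCM, NB9464, NBT3L), 13, 3 and 5 of them rose and 2, 4 and 3 fell. Sesn2 rose by 0.80 with 1.09, 0.64 and 0.68 in the 3 media, Chac1 by 0.89 ± 0.20 and Phgdh by 0.93 ± 0.27, whereas Psat1 (-0.60 ± 0.063) and Atf3 (-0.52 ± 0.15) fell. Of 20 ER chaperone and unfolded protein response genes, 2 rose (10%; Herpud1, 0.64 ± 0.088, and Ern1, 0.29 ± 0.087) and 9 fell (45%), among them Calr (-0.32 ± 0.095) and Pdia4 (-0.30 ± 0.070). In the same order of media, 13, 4 and 0 of this list fell and 3, 1 and 1 rose. Of 26 lysosome genes, 6 rose (23.1%) and 7 fell (26.9%). Tfeb, a regulator of lysosomal genes, rose by 0.56 ± 0.061 with 0.63, 0.54 and 0.49 in the 3 media, and Ctsl fell by 0.60 ± 0.058. Of 14 NRF2 targets, 1 rose (7.14%) and 4 fell (28.6%), while by medium 6, 1 and 1 rose and 3, 6 and 6 fell. Hmox1 fell by 0.32 ± 0.034 and Gclm rose by 0.41 ± 0.080. Among 9 aryl hydrocarbon receptor genes, 2 rose (22.2%), of which Ahrr changed most (0.77 ± 0.10). Of 26 actin and podosome genes, 2 rose (7.69%) and 4 fell (15.4%), shares near those of all genes, with Myo1f at 0.26 ± 0.029 and Actg1 at -0.32 ± 0.055. By medium, 4, 3 and 3 of them rose and 11, 3 and 3 fell.

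How alike the effect was in the 3 media was tested directly. The size of the R788 effect differed between media in 2104 genes (12.9%; DESeq2 likelihood ratio test, adjusted p under 0.05), of which 1180 were not called over media. The count was 1309 without NS replicate 2, 1946 without R788 replicate 8 and 1402 by edgeR. Among the 2523 shared genes, 560 (22.2%) differed in size. Within the medium without TCM 4327 genes passed (26.6%), of which 1882 rose (11.6%) and 2445 fell (15.0%). Within NB9464 TCM the count was 2359 (14.5%), with 942 rises (5.79%) and 1417 falls (8.70%). Within NBT3L TCM it was 2046 (12.6%), with 867 rises (5.33%) and 1179 falls (7.24%). With R788 replicate 8 left out, the counts were 3644 (no TCM), 2876 (NB9464) and 2558 (NBT3L). Leaving out a library of its own medium moved the NB9464 count to as low as 1419 (replicate 3) and the NBT3L count to as low as 1172 (replicate 6), and a fit of the 4 NBT3L libraries alone gave 3678. Fits of the 4 libraries of another medium alone gave 3158 (no TCM) and 2198 (NB9464), so the order of the media depended on the fit. The contrasts within media share no library, but they came from a single fit with a shared estimate of spread for each gene. In all 3 media, 304 genes passed upward (1.87%) and 585 downward (3.59%). Among shared genes called higher, the median log2 fold change was 0.43 (no TCM), 0.31 (NB9464) and 0.31 (NBT3L). For those called lower it was -0.52, -0.38 and -0.36 in the same order.

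Markers of other cell types were low or mixed. Counts scaled to library size (CPM) and summed over the list are given in parentheses for libraries without and with R788. Of 10 tested neutrophil markers, 2 rose (Ltf, Ngp) and 2 fell (S100a8, S100a9; 359.9 to 918 and 482 to 604 CPM), and Ly6g had 7 counts in all. Of 7 dendritic cell markers, 0 rose and Itgax fell (9.45 to 13.0 and 6.40 to 10.4 CPM), with Siglech at 0 counts. Of 2 tested lymphocyte markers, Cd4 rose (0.311 to 1.88 and 0.510 to 3.56 CPM), a call lost without R788 replicate 8. Of 10 stromal and endothelial markers, 4 rose and 2 fell (44.4 to 65.8 and 61.0 to 90.3 CPM). Col1a1 rose by 0.86 ± 0.13 and Col1a2 by 0.83 ± 0.12, while Kdr fell by 1.51 ± 0.23. Mast cell markers (0.279 to 1.48 and 0 to 0.974 CPM) and neuroblastoma lineage markers (0.200 to 2.27 and 0.520 to 2.94 CPM) had no called gene among 2 and 6 tested, and Th and Chga had 0 counts. Their part in the results was not tested.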

How the data were processed

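RNA-seq of 12 BMDM libraries was analysed from the raw counts per Ensembl gene that the authors deposited. According to the methods, reads were mapped to mm10 with STAR and quantified with Salmon. The submitters' processing notes list STAR 2.6.1d, Salmon 1.4.0, SAMtools 1.9, Picard 2.26 and MultiQC 1.11. The name of the deposited table also points to Salmon, but its values are whole numbers beside a gene length, as read counters write them, so which program made the counts is unsure. Strand setting and handling of multi-mapped reads are not given in the sources used here. The methods describe triplicates and single reads, while the labels hold 2 libraries per group and paired reads. Between 65.2% and 67.9% of counts from 1 to 40 were even, so mates may have been counted separately. No extraction or sequencing batch is given.

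Gene IDs were matched to GENCODE M21 (54165 of 54232). Genes that reached 10 counts in 2 or more libraries entered DESeq2 1.42.0 (R 4.3.3; median-of-ratios scaling, Wald test, medium and R788 as terms, Benjamini-Hochberg adjusted p under 0.05). DESeq2 gave no adjusted p for 2526 genes, which count as not called. Contrasts within media came from a fit of 6 group means, and differences between media from a likelihood ratio test. Fold changes were not shrunk, and normalized counts are counts divided by size factors. Scripts were tested on simulated data. edgeR 4.0.16 (quasi-likelihood, TMM), other filters and scalings, and leaving out libraries or media were the alternatives. Leaving R788 replicate 8 out of the detected genes and of all lists was added after seeing the data.

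Named genes were Syk, the 12 called genes with the greatest rise and the 12 with the greatest fall, given a mean normalized count of 100 or more and 12 of 12 within-medium pairs in 1 direction, and for each of 37 lists the 2 largest called rises and falls at that mean. Other list members serve as examples, and Spp1 and Tmem176a were named after their values were seen. Of 668 list entries, 633 were tested and 1 was not matched. The members and lists were chosen with earlier results of these data known. Promoter windows came from RefSeq (GRCm38.p6). Some genes are not reported here.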

Additional observations from a re-analysis of the deposited data

Results flagged for a closer look

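The R788 effect differed in size between the 3 media in 2104 genes (DESeq2 likelihood ratio test of medium by R788, adjusted p under 0.05), and the named genes among them are given here with the adjusted p of that test. Each within-medium value compares 2 with 2 libraries. The grouping below goes by the fitted values, and single media were not tested against each other.

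Many of these genes had their largest change without TCM, the medium that holds R788 replicate 8. Among rises these were Adgre4 (0.00373), Cox6a2 (0.00397), Fgr (0.000943), Card9 (1.08e-06), Csf3r (2.65e-11), Nfkbie (4.12e-05), Nfkb2 (0.00289), Apoe (1.33e-38), Gaa (0.000368), Herpud1 (0.00084), Ern1 (0.00546), Phgdh (7.28e-12), Gclm (9.2e-20) and Ahrr (0.000282). Apoe, which carries lipid out of macrophages, had log2 fold changes of 1.84 (no TCM), 0.35 (NB9464) and 0.08 (NBT3L), and triplets below keep that order. Among falls these were Fcgr1 (2.83e-68), Cblb (0.0108), Ccr3 (0.0205), Arg1 (0.00984), Nos2 (0.00725), Cd40 (0.000201), C3ar1 (1.75e-12), Cdk1 (0.00193), Pcna (5.98e-37), Scd1 (0.0442), Scd2 (2.38e-79), Pgk1 (4.29e-25), Slc2a1 (0.00434), Cycs (4.25e-06), Ctsl (4.53e-09), Calr (1.24e-36), Pdia4 (0.001), Atf3 (3.11e-26) and Myo1e (1.14e-50). Calr, an ER chaperone, had -0.80, -0.05 and -0.10, and the myosin gene Myo1e had -1.71, -0.31 and -0.19.

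Other genes changed more in the tumor media than without TCM. The falls of Ifi206 (0.00147), Trem1 (0.000183), Stat2 (0.00508), Ctsk (0.00403), Prdx1 (0.00482) and Kdr (0.00641) were larger in both, as were the rises of Tlr9 (0.000995), Fcrls (4.93e-08), Ngp (0.0329) and Ifngr1 (0.0156). Ifi213 (1.57e-05) had 0 counts in NB9464 TCM + R788. The falls of Ccl7 (2.29e-30) and Nes (0.0351) were smallest in NBT3L TCM, and that of Il1rn (0.000216) in NB9464 TCM. Tlr9 had 0.11, 0.55 and 1.19, and Kdr had -0.77, -1.54 and -2.30.

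For a few genes the sign was not the same in all media. Mrc1, the mannose receptor, had 0.12 without TCM and -1.60 and -1.08 in the tumor media (6.1e-52). Abcg1, a cholesterol exporter, had -1.41, -0.53 and 0.21 (1.55e-18). Ndrg1 (2.09e-05) and Cox5a (0.0418) had -0.11 and -0.04 without TCM and positive values in both tumor media. Clec4e had 0.49, 0.36 and -0.03 (3.05e-08), and Fpr2 had 0.67 and 0.25 with almost no change in NBT3L TCM (1.06e-09).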

How the results depend on the processing

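Direction held for all 116 named genes under every alternative run: of 2552 values, 2407 kept their call and 145 (73 genes) lost it, none changing sign. For 72 of these genes the loss came from requiring at least 2-fold, and 25 lost it under another alternative. The 2-fold minimum left 418 genes over media (135 higher, 283 lower), 806, 343 and 314 within no TCM, NB9464 TCM and NBT3L TCM, and, called lower, 6 ERK, 0 mitosis, 0 DNA replication and 1 sterol synthesis genes. Leaving out NBT3L TCM gave 1179 genes higher. edgeR found 1402 genes that differed between media and shared 3345 of the 3944 calls. The average of the within-medium contrasts, where differences between media do not enter the spread, called 4816 genes. Fits of the 4 libraries of each medium alone called 3158 (no TCM), 2198 (NB9464) and 3678 (NBT3L). The cause of these shifts was not tested.

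With 1 library left out at a time, calls over media were 3301 to 4038 (1486 to 1828 higher, 1815 to 2210 lower), shared genes 2483 to 2943, and genes differing between media 1309 (without NS replicate 2) to 2988. Within media the ranges were 3070 to 4678 without TCM, 1419 to 2876 in NB9464 TCM and 1172 to 2558 in NBT3L TCM. The NB9464 count moved by over 1.5 times without replicates 3 (1419), 9 (1484) or 10 (1571), and the NBT3L count without replicates 5 (1264), 6 (1172), 11 (1222) or 12 (1186). A lone library is then assumed to vary like the other groups. No paired analysis was possible because the library numbers are unique and no replicate number is shared between groups. With 2 libraries per group, small effects within a medium may be missed.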
